A study of Mus musculus with 17 samples.

Results

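The 7 sirtuins (Sirt1 to Sirt7), Parp1, Parp2 and Cd38 are the best known enzymes that consume NAD in mammalian tissue, and their transcripts were followed in mouse liver 24 h after acetaminophen (APAP) or saline. The members were chosen by gene symbol, and all 10 were found among the 46073 genes listed. A mean of at least 1 FPKM (a level corrected for the length of the transcript and the size of the library) over the 17 libraries was required for a test, which 9 of the 10 members and 11083 genes in all passed. Sirt6, at a mean of 0.734 FPKM, did not pass and is described from a fit without that filter.

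The livers came from male C57BL/6 mice aged 11 to 12 weeks, each sequenced as 1 library from total RNA. Livers labelled Nampt +/+ (WT here) were taken after saline (3 libraries), after saline marked IG (1 library) and after 200 mg/kg APAP (3 libraries). Livers labelled Nampt +/- (Het) were taken after saline (2 libraries) and after 200 mg/kg APAP (3 libraries). Livers labelled Nampt OE (OE) were taken after saline (2 libraries), after 200 mg/kg APAP (2 libraries) and after 300 mg/kg APAP (1 library). Nampt makes the NAD precursor nicotinamide mononucleotide, so the labels set groups of livers that may differ in NAD supply. The sources used here do not give how the OE animals were made, which cells carry the change or which livers came from littermates. The labels do not say that replicates were separate experiments, and the p-values therefore rest on the spread among these libraries alone, which may be technical.

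The Het label did not go with lower Nampt mRNA. Nampt stood at 17.1 ± 1.54 FPKM (SD, n = 3) in WT saline, 24.5 ± 2.10 FPKM (n = 2) in Het saline and 24.8 ± 3.42 FPKM (n = 2) in OE saline. Both Het saline livers were above all 3 WT saline livers, while the WT liver marked IG, at 23.4 FPKM, lay between them, so the groups are named by their labels throughout. After 200 mg/kg APAP it stood at 10.9 to 16.8 FPKM in WT, 11.3 to 15.4 FPKM in Het and 18.5 to 36.0 FPKM in OE. OE saline replicate 2 and OE APAP replicate 1, both from sequencing lane L004 and not perfused, stood apart on the second principal component, which held 12.8% of the variance (scores of -38.5 and -39.0, the other 15 libraries between -15.2 and 17.9). The 300 mg/kg liver, from the same lane, did not. WT saline was sequenced on lanes L006 and L007, which it shared with the IG library alone, so the WT APAP response and lane cannot be told apart. Every liver on lanes L007 and L008 was perfused and none on L004, L005 and L006, so perfusion goes with lane as well. Hepatocyte markers were high in every library, with 8 of 8 summing to 9657 to 25680 FPKM, although albumin was listed at 0 in all 17 and was not used.

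Sirtuins take the acyl group off lysines of proteins and spend an NAD molecule in each cycle. Sirt1, Sirt6 and Sirt7 act mainly in the nucleus (Sirt7 in the nucleolus), Sirt2 mainly in the cytosol, and Sirt3, Sirt4 and Sirt5 in mitochondria, where Sirt3 is the main deacetylase and Sirt5 removes succinyl and malonyl groups. Parp1 and Parp2 bind broken DNA and use NAD to build poly(ADP-ribose), and Cd38 is a membrane glycohydrolase that degrades NAD and its precursor. APAP is turned by hepatocyte P450 enzymes into a reactive product that damages mitochondria first, and hepatocytes near the central vein are the ones that die.

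Promoter sequence is shown for Sirt3 and Sirt7, the members with the smallest adjusted p in the averaged APAP response, and for Sirt6, which was too low to test. The 30-base stretches come from RefSeq's windows of 250 bases before to 50 bases after a start site (build GRCm38.p6), which held all 10 members in 12 windows. Each is written 5′ to 3′ on the gene's strand, and capitals mark the letters that matched.
Sirt3, chr7:140882377-140882406, minus strand, ETS letters on the opposite strand 85 bases before a start site: agtgctcgctcaCTTCCGGcaccgcgggcg
Sirt6, chr10:81627584-81627613, minus strand, ETS letters on the opposite strand 35 bases before a start site: gtcccttcaccaCTTCCGGcggaagcggcc
Sirt7, chr11:120625020-120625049, minus strand, NRF1 letters 24 bases before the start site: gggccgggcccGCGCATGCGtctctgtagc

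The ETS letters CCGGAAG, searched on both strands, were found in 3 of the 10 members and in 8.86% of 32817 windows. The NRF1 letters GCGCATGCG were found in Sirt6 and Sirt7 and in 1.75% of windows; they read almost the same on both strands, so the site in Sirt6 matched on each, 1 base apart. The GC box GGGGCGGGG was found in 4 members (Sirt1, Sirt2, Sirt3 and Sirt5) against 11.4% of windows, and the E-box CACGTG in 3 (Sirt1, Parp1 and Parp2) against 7.15%. The CRE letters TGACGTCA (1.79% of windows) and the STAT letters TTCCNGGAA (1.15%) were in none of the members' windows, and Sirt4 and Cd38 held none of the 7 patterns. The patterns were chosen after these promoters had been read, and an ERR pattern, TCAAGGTNA, was written to cover a match in Sirt3 and is therefore not shown; the matches are a description of letters and not of binding.

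Sirt3 was the most abundant member by length-scaled level, with a mean of 32.2 FPKM, and stood above Sirt7 (13.3 FPKM) in 17 of 17 libraries. Sirt2 (10.7 FPKM) and Parp1 (10.5 FPKM) followed and changed places between libraries, Sirt2 being the higher in 11 of 17. Cd38 (7.34 FPKM) and Sirt5 (7.30 FPKM) changed places between saline and APAP: Cd38 was the higher in 11 of 17 libraries, and the 6 exceptions were the WT and OE saline livers. Sirt1 (4.08 FPKM), Sirt4 (3.94 FPKM) and Parp2 (3.57 FPKM) lay close together, Sirt1 being above Sirt4 and Sirt4 above Parp2 in 11 of 17 libraries each, and Sirt6 was the lowest in every library. Sirt3 ranked above 84.4% of the tested genes by mean level and Parp2 above 31.2%.

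The summed level of the 7 sirtuins was 91.8 ± 3.93 FPKM (SD, n = 3) in WT saline and 56.7 ± 4.85 FPKM (n = 3) in WT APAP. The sum stood at 79.7 ± 5.38 FPKM (n = 2) in Het saline and 47.6 ± 6.60 FPKM (n = 3) in Het APAP. In the OE livers the sum was 83.7 ± 16.8 FPKM (n = 2) after saline and 69.6 ± 7.12 FPKM (n = 2) after APAP, which overlapped. The mitochondrial sirtuins made up 63.7% to 65.5% of that sum in WT saline, 52.1% to 55.3% in WT APAP and 45.5% to 53.1% in Het APAP, beside 62.6% to 63.2% in Het saline. In OE they made up 55.5% to 64.7% after saline and 59.1% to 59.4% after APAP, which overlapped. Parp1 exceeded Parp2 in every library, by 2.03 to 4.06 times.

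**Figure D1:**
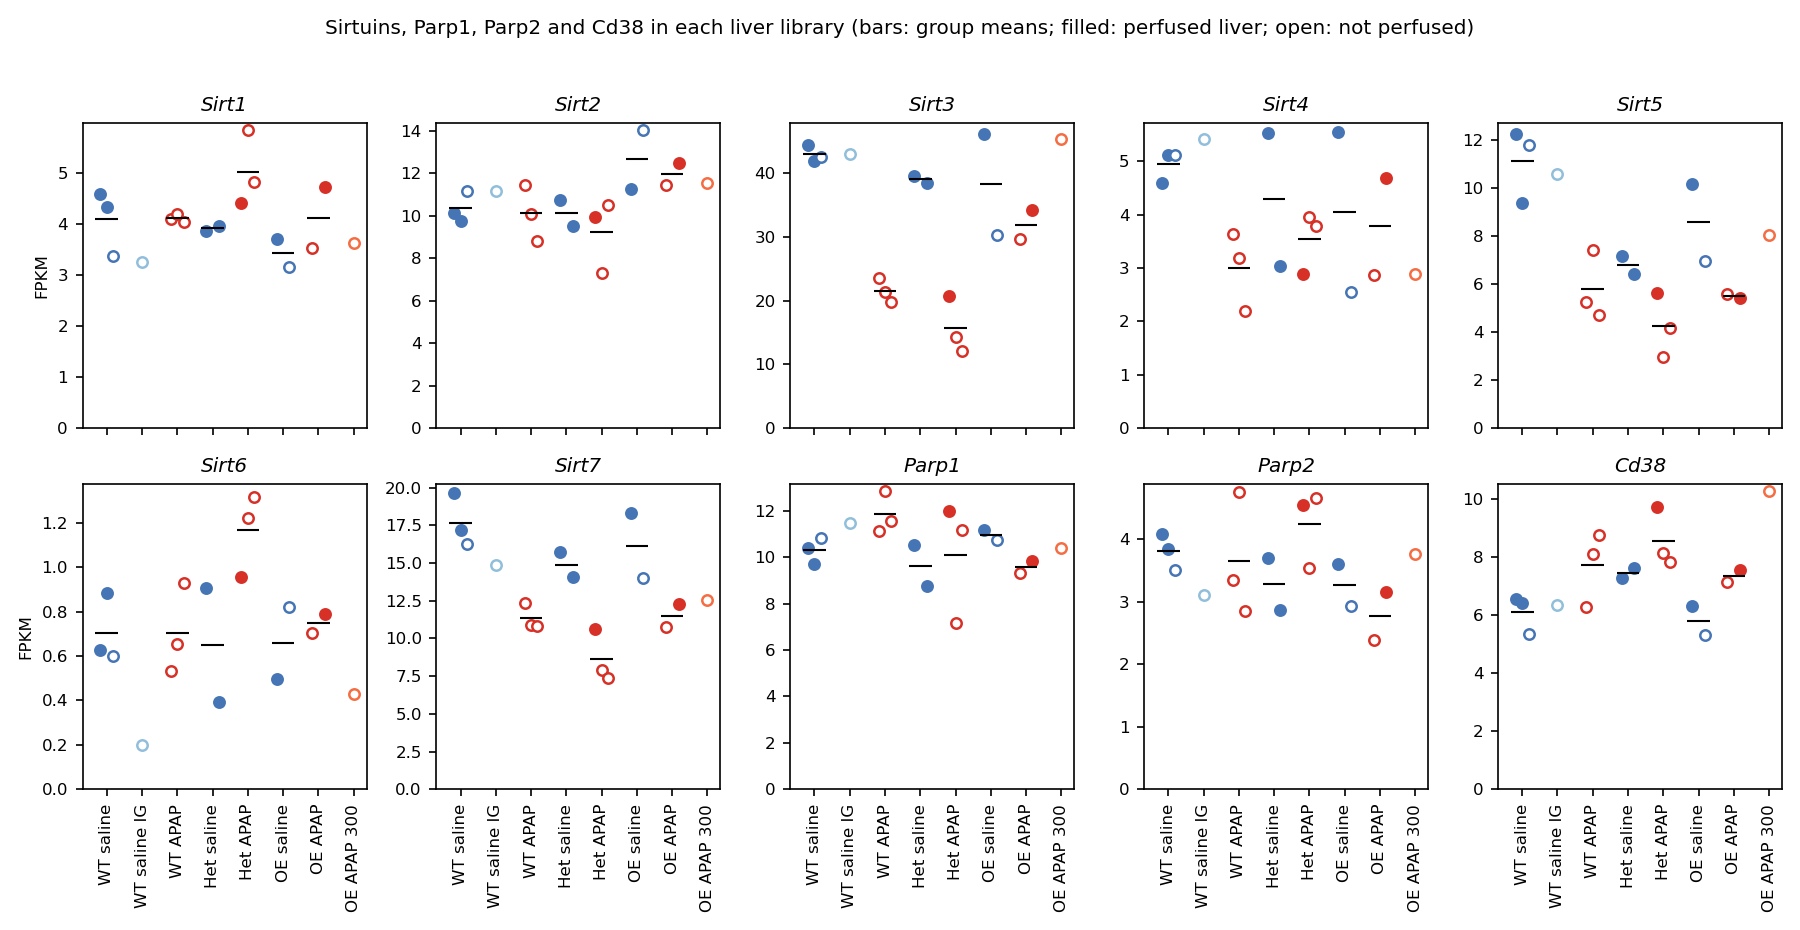
Level of each member in FPKM (linear axes from 0) in the 17 libraries, by group; filled points are perfused livers, open points livers that were not perfused, and bars are means of groups with more than 1 library. Every saline point of Sirt7 lies above every APAP point, and the Sirt3 points of WT and Het APAP lie below all others.

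Averaged over the 3 genotype labels at 200 mg/kg, 4 of the 9 tested members changed after APAP. The mitochondrial deacetylase Sirt3, the desuccinylase Sirt5 and the nucleolar Sirt7 fell, and the glycohydrolase Cd38 rose. Of all genes tested, 23.1% passed the same test (9.81% higher, 13.3% lower), so 3 lower and 1 higher of 9 members is read against that. The members' median difference was -0.09 on the log2(FPKM + 1) scale, beside -0.02 for all genes. The test was limma's on that scale with perfusion as a covariate, two-sided, with Benjamini-Hochberg adjustment over the 11083 genes. Scaling moved the split over all genes: 1087 were higher and 1474 lower as deposited, 1366 and 571 with each library scaled to the same sum, 1420 and 1092 with a common upper quartile, and 1151 and 1169 after quantile normalisation. Scaling to the same sum moved the median of all genes from -0.02 to 0.11 in the averaged response, from -0.06 to 0.25 in Het and from 0.05 to -0.25 in OE against Het after APAP, and the members' values under it are relative to that shift.

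Sirt3 (ENSMUSG00000025486, chr7:140863666-140882309, GRCm38) stood at 44.3, 41.8 and 42.6 FPKM in the WT saline livers and at 23.6, 21.3 and 19.8 FPKM in WT APAP. It stood at 39.6 and 38.5 FPKM in Het saline and at 20.8, 14.3 and 12.1 FPKM in Het APAP. In OE it stood at 46.1 and 30.3 FPKM after saline, 29.7 and 34.2 FPKM after 200 mg/kg and 45.3 FPKM after 300 mg/kg. The WT and Het groups did not overlap between saline and APAP, and the OE groups did. By deposited FPKM the 300 mg/kg liver was second only to 1 OE saline liver among the 17. Averaged over the labels, Sirt3 fell by 0.67 ± 0.11 (SE) on the log2(FPKM + 1) scale (limma, adjusted p = 0.00154), to 0.628 of its saline value on the FPKM + 1 scale, which holds for the folds below too. It passed in 28 of 28 refits, at -0.83 to -0.53. Without the perfusion term its averaged difference was -0.83, for which an exact permutation of drug within genotype label gave a two-sided p of 0.0025. The permutations here and below take no account of lane or perfusion.

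Sirt7 (ENSMUSG00000025138, chr11:120618372-120625240) deacylates chromatin and sustains ribosomal RNA synthesis. It stood at 19.6, 17.2 and 16.3 FPKM in WT saline, 15.7 and 14.1 FPKM in Het saline, 18.3 and 14.0 FPKM in OE saline and 14.9 FPKM in the IG liver. After APAP it stood at 12.3, 10.9 and 10.8 FPKM in WT, 10.6, 7.91 and 7.41 FPKM in Het, 10.7 and 12.3 FPKM in OE and 12.6 FPKM at 300 mg/kg. Each of the 8 saline livers was above each of the 9 APAP livers, with 14.0 FPKM as the lowest saline and 12.6 FPKM as the highest APAP value. The averaged fall was 0.47 ± 0.09 on the log2 scale (limma, adjusted p = 0.00312), to 0.724 of saline. Without the perfusion term the averaged difference was -0.59, and its exact two-sided permutation p was 0.000833, the smallest the 1200 relabellings allow. The call was lost when each library was scaled to the same sum (adjusted p = 0.113). Sirt7 shares 124 exonic bases, 2.41% of its own, with Mafg on the same strand, and Mafg fell too, by 0.48 ± 0.11 (limma, adjusted p = 0.00963); reads over those bases cannot be assigned to either gene with certainty.

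Sirt5 (ENSMUSG00000054021, chr13:43365496-43395203) stood at 12.3, 9.39 and 11.8 FPKM in WT saline and at 5.26, 7.43 and 4.74 FPKM in WT APAP. It stood at 7.16 and 6.43 FPKM in Het saline and at 5.65, 2.95 and 4.19 FPKM in Het APAP. The difference between Het and WT saline did not pass (limma, adjusted p = 0.286) and cannot be told apart from lane. OE livers had 10.2 and 6.97 FPKM after saline, 5.60 and 5.44 FPKM after 200 mg/kg and 8.06 FPKM after 300 mg/kg. Within each label the saline and 200 mg/kg livers did not overlap, but the highest WT APAP liver was above both Het saline livers. The averaged fall was 0.56 ± 0.15 on the log2 scale (limma, adjusted p = 0.0159), to 0.677 of saline. Without the perfusion term the averaged difference was -0.66, with an exact two-sided permutation p of 0.00167. The call was lost without WT saline replicate 3 (adjusted p = 0.0768), without OE APAP replicate 2 (0.127), with no filter on low values (0.0557) and with each library scaled to the same sum (0.119).

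Sirt4, the third mitochondrial sirtuin, which acts as a lipoamidase and ADP-ribosyltransferase, stood at 4.60 to 5.12 FPKM in WT saline and at no more than 3.63 FPKM in WT APAP, without overlap. In the other labels saline and APAP overlapped, and saline livers alone ranged from 3.04 to 5.53 FPKM in Het saline and from 2.56 to 5.55 FPKM in OE saline. Its averaged difference was -0.18 ± 0.18 (limma, adjusted p = 0.507), with a 95% interval from -0.58 to 0.21.

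Cd38 (ENSMUSG00000029084, chr5:43868553-43912375) stood at 6.54, 6.41 and 5.34 FPKM in WT saline and at 6.27, 8.09 and 8.76 FPKM in WT APAP. In Het it stood at 7.28 and 7.60 FPKM after saline and at 9.71, 8.13 and 7.83 FPKM after APAP, and in OE at 6.31 and 5.30 FPKM after saline and at 7.12 and 7.55 FPKM after 200 mg/kg. The highest deposited value, 10.3 FPKM, was in the 300 mg/kg liver, whose library also had the largest summed FPKM (916006). Het and OE livers did not overlap between saline and APAP, whereas WT APAP replicate 1 lay within the WT saline range. The averaged rise was 0.34 ± 0.09 on the log2 scale (limma, adjusted p = 0.0194), or 1.27-fold. Without the perfusion term the averaged difference was 0.25, with an exact two-sided permutation p of 0.0075. The limma call sat near the threshold: adjusted p was 0.0557 without the perfusion term, 0.0590 without WT saline replicate 3, 0.0522 without Het saline replicate 1, 0.0504 without Het APAP replicate 1, 0.0769 without OE saline replicate 2, 0.0618 without OE APAP replicate 2 and 0.0714 without both OE libraries that stood apart.

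The DNA damage sensors did not pass the test. Parp1 stood at 8.75 to 11.5 FPKM in the 8 saline livers (median 10.6) and at 7.17 to 12.9 FPKM in the 9 APAP livers (median 11.1), which overlapped. Its averaged difference was 0.06 ± 0.12 (limma, adjusted p = 0.744), with a 95% interval from -0.19 to 0.32. The sign was not stable, at -0.03 without Het APAP replicate 1. Parp2 stood at 2.86 to 4.09 FPKM after saline (median 3.56) and at 2.39 to 4.76 FPKM after APAP (median 3.53), with a difference of 0.10 ± 0.12 (adjusted p = 0.593; interval -0.16 to 0.36). These intervals bound the averaged change of Parp1 and Parp2 but do not show that there was none.

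Sirt1 and Sirt2 did not pass either. Sirt1, a deacetylase of histones and of transcription factors of metabolism, had a median of 3.78 FPKM after saline and 4.19 FPKM after APAP, and its highest value, 5.83 FPKM, was in Het APAP replicate 2. The averaged difference was 0.23 ± 0.10 (limma, adjusted p = 0.126; interval 0.01 to 0.45), and it passed in 1 of 27 refits, without Het APAP replicate 1 (0.35, adjusted p = 0.0246). Sirt2, a deacetylase of tubulin among other targets, had a median of 10.95 FPKM after saline and 10.5 FPKM after APAP. Its averaged difference was -0.09 ± 0.11 (limma, adjusted p = 0.597). That sign turned to 0.05 when libraries were scaled to the same sum.

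Sirt6, a chromatin deacylase, stood at 0.199 to 1.32 FPKM. Het APAP held its highest values, at 0.959, 1.22 and 1.32 FPKM, against 0.907 and 0.395 FPKM in Het saline, so these groups did not overlap. In a fit of 32149 genes without the filter its averaged difference was 0.13 ± 0.11 (limma, adjusted p = 0.531) and its Het response 0.36 ± 0.18 (adjusted p = 0.265). With no counts deposited the depth is unknown, so the precision of such low values cannot be given.

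**Figure D2:**
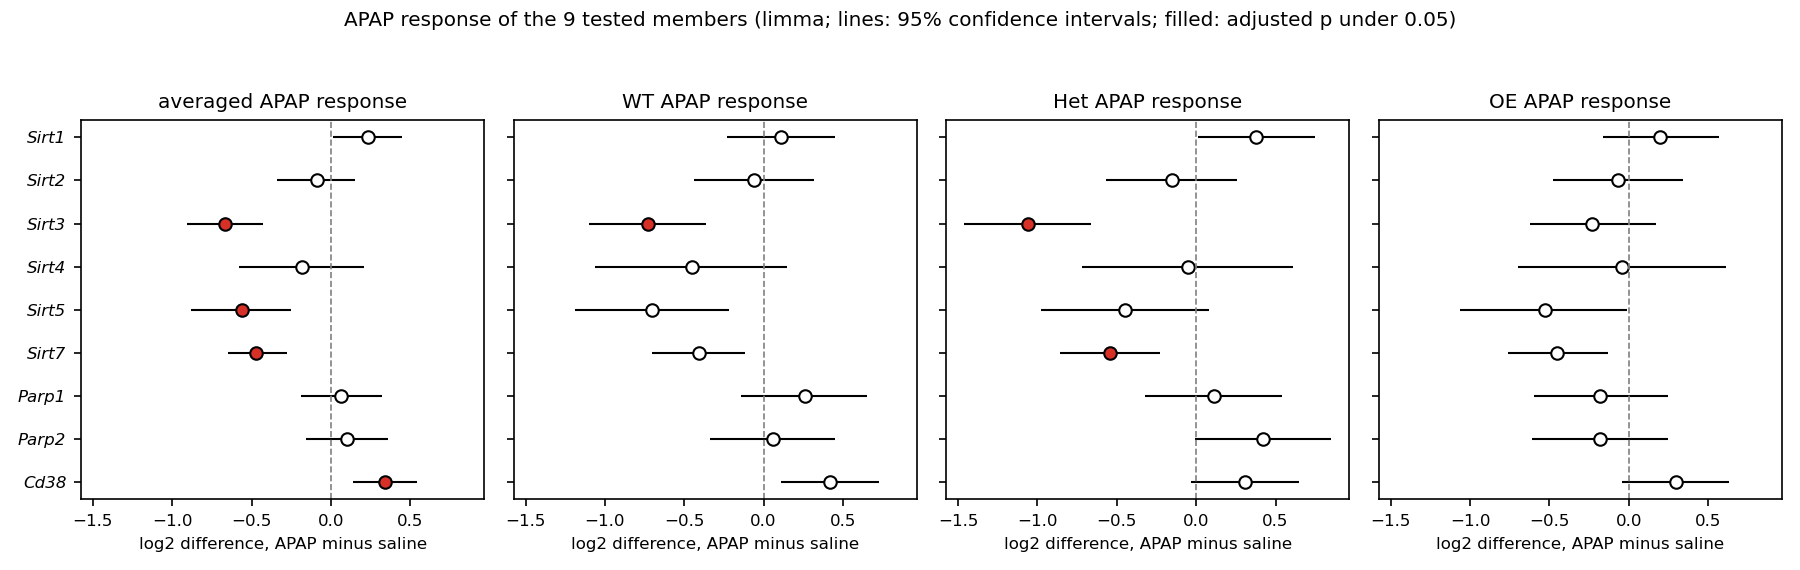
Difference after 200 mg/kg APAP on the log2(FPKM + 1) scale (horizontal axis) for the 9 tested members (rows), averaged over labels and within WT, Het and OE; points are limma estimates, lines 95% confidence intervals, and filled points passed at an adjusted p under 0.05. Sirt3, Sirt5 and Sirt7 lie left of 0 and Cd38 right of 0 in all 4 panels. So do, without passing, Sirt2 and Sirt4 (left) and Sirt1 (right).

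Within single labels fewer members passed, on 2 or 3 libraries a group. In WT, 1 of 9 members passed beside 5.54% of all genes (218 higher and 396 lower, but 173 and 109 with each library scaled to the same sum): Sirt3 fell by 0.73 ± 0.17 (limma, adjusted p = 0.0273). In Het, 2 of 9 passed beside 22.2% of all genes (1005 higher and 1454 lower, but 1704 and 443 under that scaling): Sirt3 fell by 1.06 ± 0.18 (adjusted p = 0.00265) and Sirt7 by 0.54 ± 0.15 (adjusted p = 0.0200). In OE, limma called 0 of 9 members and 0.0% of all genes, with 2 members (and 534 genes) at an unadjusted p under 0.05, and Sirt3 differed by -0.23 ± 0.18 (adjusted p = 1.0).

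Sirt5, Sirt7 and Cd38 kept 1 sign in the 3 labels, as did Sirt3. The uncalled Sirt1, Sirt2 and Sirt4 did so too, so 1 sign was not particular to the members called. Of the values that follow none passed. Sirt5 differed by -0.70 ± 0.22 in WT, -0.45 ± 0.24 in Het and -0.53 ± 0.24 in OE. Sirt7 differed by -0.41 ± 0.13 in WT and -0.45 ± 0.14 in OE, close to its value in Het. Cd38 differed by 0.42 ± 0.14, 0.31 ± 0.16 and 0.30 ± 0.15 in WT, Het and OE.

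The WT call for Sirt3 rested on several libraries. It was lost without WT saline replicate 3, the WT saline liver that was not perfused (-0.49, adjusted p = 0.204), without WT saline replicate 1 (0.0616), without WT APAP replicate 2 (0.0616) or 3 (0.0834), without OE APAP replicate 1 (0.0524) or 2 (0.0523), and when only the 2 groups compared were fitted (-0.95, adjusted p = 0.0976). No WT APAP liver was perfused, and among livers that were not, the 3 WT APAP libraries differed from WT saline replicate 3 by -0.95 for Sirt3, -0.93 for Sirt5 and -0.49 for Sirt7, with no test. The Het call for Sirt7 was lost in 7 of 29 refits: without Het saline replicate 1 (adjusted p = 0.137) or 2 (0.0637), with lane in place of perfusion (0.134), with the 2 groups fitted alone (0.202) and under all 3 scalings, namely quantile normalisation (0.0596), a common upper quartile (0.0730) and the same sum (-0.23, adjusted p = 0.542). The Het call for Sirt3 was lost only when the 2 groups were fitted alone (-0.88, adjusted p = 0.0517).

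At 200 mg/kg, libraries of the same lane gave the same signs for the 4 members that changed, as values without a test. Sirt1, which did not pass, also kept 1 sign there. On lane L008 the Het APAP liver differed from the 2 Het saline livers by -0.88 for Sirt3, -0.23 for Sirt5, -0.45 for Sirt7 and 0.34 for Cd38. On the same lane the OE APAP liver differed from the OE saline liver by -0.42, -0.80, -0.54 and 0.23. On lane L004, where both OE libraries that stood apart were run, the differences were -0.03 for Sirt3, -0.27 for Sirt5, -0.35 for Sirt7 and 0.37 for Cd38. The OE difference of Sirt3 was thus near 0 on the lane of the libraries that stood apart.

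At 300 mg/kg there was 1 OE liver, set here beside the OE saline liver of its lane with no replicate. Sirt3 was 0.56 higher on the log2 scale, Sirt5 0.18 higher, Cd38 0.84 higher and Sirt7 0.14 lower, so Sirt3 and Sirt5 had the opposite sign to that at 200 mg/kg. The doses of 200 and 300 mg/kg were not compared by a test.

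Among the labels after APAP, OE and Het were apart on Sirt3. OE and Het livers at 200 mg/kg, 29.7 and 34.2 FPKM against 12.1 to 20.8 FPKM, did not overlap, and Sirt3 was 0.95 ± 0.17 higher in OE on the log2 scale (limma, adjusted p = 0.00662), or 1.93-fold. It was the 1 member of 9 that passed in that comparison, in which 13.7% of all genes passed (969 higher and 548 lower, but 222 and 1279 with each library scaled to the same sum and 590 and 835 with a common upper quartile). The call was lost without OE APAP replicate 1 (0.84, adjusted p = 0.204), with both OE libraries that stood apart left out (0.89, adjusted p = 0.185), with lane in place of perfusion (0.79, adjusted p = 0.212) and when the 2 groups were fitted alone (0.93, adjusted p = 0.0878). On lane L008 the difference was 0.69, with 1 library on each side and no test. Among livers that were not perfused it was 1.11, again with no test. That value sets OE APAP replicate 1 of lane L004, which stood apart, against 2 Het livers of lane L005, so label and lane cannot be told apart there.

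Parp2 was lower in OE APAP, at 2.39 and 3.15 FPKM, than in Het APAP, at 4.55, 3.53 and 4.67 FPKM, without overlap. The difference was -0.51 ± 0.18 (limma, adjusted p = 0.0813). It passed with a common upper quartile (-0.63, adjusted p = 0.0386) and with each library scaled to the same sum (-0.86, adjusted p = 0.0462), where the call for Sirt3 was lost (0.63, adjusted p = 0.0575).

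Het and WT livers after APAP, which share lane L005 in all but 1 library, differed by -0.58 ± 0.15 for Sirt3 (limma, adjusted p = 0.0845) and by -0.46 ± 0.12 for Sirt7 (adjusted p = 0.0830). No member passed there, beside 0.0541% of all genes, with 3 members (and 2118 genes) at an unadjusted p under 0.05. With lane in place of perfusion both passed, at -0.67 (adjusted p = 0.0270) and -0.51 (adjusted p = 0.0419), and both also passed without Het APAP replicate 1, the perfused liver of that group (adjusted p = 0.0346 and 0.0479). Sirt3 alone also passed without WT saline replicate 3 (adjusted p = 0.0446) and without WT APAP replicate 3 (adjusted p = 0.0465). Within lane L005 the Het livers stood at 14.3 and 12.1 FPKM of Sirt3 and the WT livers at 19.8 to 23.6 FPKM.

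The remaining comparisons of labels called 0 of 9 members by limma. Against WT after APAP, OE differed by 0.37 ± 0.18 for Sirt3 (adjusted p = 0.303), beside 0.00902% of all genes passing and 0 members (1910 genes) at an unadjusted p under 0.05. Under saline, 0.0361% of all genes passed both for Het and for OE against WT. Sirt5 was lower in Het saline than in WT saline by 0.71 ± 0.23, without overlap (6.43 to 7.16 against 9.39 to 12.3 FPKM), but did not pass (adjusted p = 0.286); 2 members (1317 genes) had an unadjusted p under 0.05 there, and 0 (662 genes) for OE. These saline differences and lane cannot be told apart.

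The difference between labels in the APAP response itself was tested as an interaction. For Sirt3 it was 0.83 ± 0.26 between OE and Het (limma, adjusted p = 0.134), 0.50 ± 0.25 between OE and WT and -0.33 ± 0.22 between Het and WT. No member passed any of the 3 tests, beside 0.018% of all genes for OE against Het and 0.0% for the other two. At an unadjusted p under 0.05 there was 1 member (2035 genes) for OE against Het, 0 (665 genes) for OE against WT and 0 (917 genes) for Het against WT. The comparisons share groups, so their values are set side by side and not compared further.

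Markers of some cell types, but not of all, also changed after APAP. The marker counts here and below are read beside all genes, of which 13.3% fell and 9.81% rose in the averaged response. In OE against Het after APAP, 13.7% of all genes were called. The sum of 8 hepatocyte markers was 22250 to 24080 FPKM in WT saline and 11640 to 17090 FPKM in WT APAP, 22780 to 23430 in Het saline and 9657 to 13330 in Het APAP, and 20140 to 25680 in OE saline and 19110 to 20430 in OE APAP. Of the 8, 3 fell in the averaged response (Apoa2, Cps1 and Fah) and 0 rose, with a median difference of -0.39 beside -0.67 for Sirt3, and without OE saline replicate 2 or OE APAP replicate 2 only 1 fell. In OE against Het after APAP 5 of the 8 were higher, with a median of 0.94, and 0 were called without OE APAP replicate 1. Of 7 tested pericentral markers 6 fell, with a median of -2.19, among them Glul, Rhbg, Slc1a2 and Oat. Within labels 4 fell in WT, 5 in Het and 0 in OE. The pericentral sum was 1273 to 5016 FPKM in OE saline and 800.7 to 1427 FPKM in OE APAP, which overlapped. OE saline replicate 1 had the lowest sum of the saline livers (1273 FPKM), below OE APAP replicate 1 (1427 FPKM), while the next lowest saline liver, the IG one, had 2577 FPKM. In bulk liver, fewer cells of a type and less RNA per cell cannot be told apart. The part of the marker shift in the fall of Sirt3, Sirt5 and Sirt7 was not tested.

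By deposited FPKM the libraries fell into nearly the same order by Sirt3 and by the hepatocyte sum. Both values share the scale of their library, whose summed FPKM over all genes was lowest in Het APAP replicate 3 (466883). That total was 793467 in OE saline replicate 1 and 916006 in the 300 mg/kg library, and the part of scale in the order was not tested. Het APAP replicate 3 had the lowest of both (12.1 and 9657 FPKM), followed by Het APAP replicate 2 (14.3 and 11100 FPKM), WT APAP replicate 3 (19.8 and 11640 FPKM) and Het APAP replicate 1 (20.8 and 13330 FPKM). Among saline livers OE saline replicate 2 had the lowest of both (30.3 and 20140 FPKM), and OE saline replicate 1 the highest of both among all libraries (46.1 and 25680 FPKM). The 300 mg/kg liver, high in Sirt3, had a hepatocyte sum of 23500 FPKM.

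Of 9 tested monocyte and macrophage markers 7 rose and 0 fell, with a median of 1.30, and 4 rose without OE saline replicate 2 or without OE APAP replicate 2. Their sum was 47.8 to 83.7 FPKM in WT saline and 81.8 to 313.6 in WT APAP, 65.3 to 107.8 in Het saline and 226.0 to 354.9 in Het APAP, and 38.5 to 102.0 in OE saline and 51.6 to 130.0 in OE APAP. Of 4 tested neutrophil markers 3 rose (Csf3r, S100a8 and S100a9), and of 8 Kupffer cell markers none passed (smallest adjusted p = 0.0838), with a sum of 111.6 to 161.9 FPKM in WT saline and 74.7 to 230.5 FPKM in WT APAP. All 9 T and NK cell markers and 6 of 7 B and plasma cell markers had a mean under 1 FPKM, and none of these markers was at 0 in all libraries. Of the other cell types, stellate cell and fibroblast markers rose in 4 and fell in 2 of 8 tested, endothelial markers rose in 1 and fell in 2 of 8, 1 of 2 cholangiocyte markers rose and 1 of 5 erythroid markers fell. Over the 17 libraries, which share depth and composition between genes, Cd38 had a Pearson r of 0.63 with the monocyte sum and 0.46 with the Kupffer sum. On lane L004 Cd38 stood at 5.30, 7.12 and 10.3 FPKM in OE saline replicate 2, OE APAP replicate 1 and the 300 mg/kg liver, beside monocyte sums of 38.5, 51.6 and 75.3 FPKM and Kupffer sums of 91.3, 90.8 and 173.2 FPKM. Het APAP replicates 2 and 3, with the highest monocyte sums (354.9 and 341.5 FPKM), had 8.13 and 7.83 FPKM of Cd38. Het APAP replicate 1, with a sum of 226.0 FPKM, had 9.71 FPKM. The r with the monocyte sum was 0.74 for Sirt1, 0.63 for Sirt6 and -0.77 for Sirt3, so a positive r was not particular to Cd38. The part of monocytes and Kupffer cells in the rise of Cd38 was not tested.

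**Figure D3:**
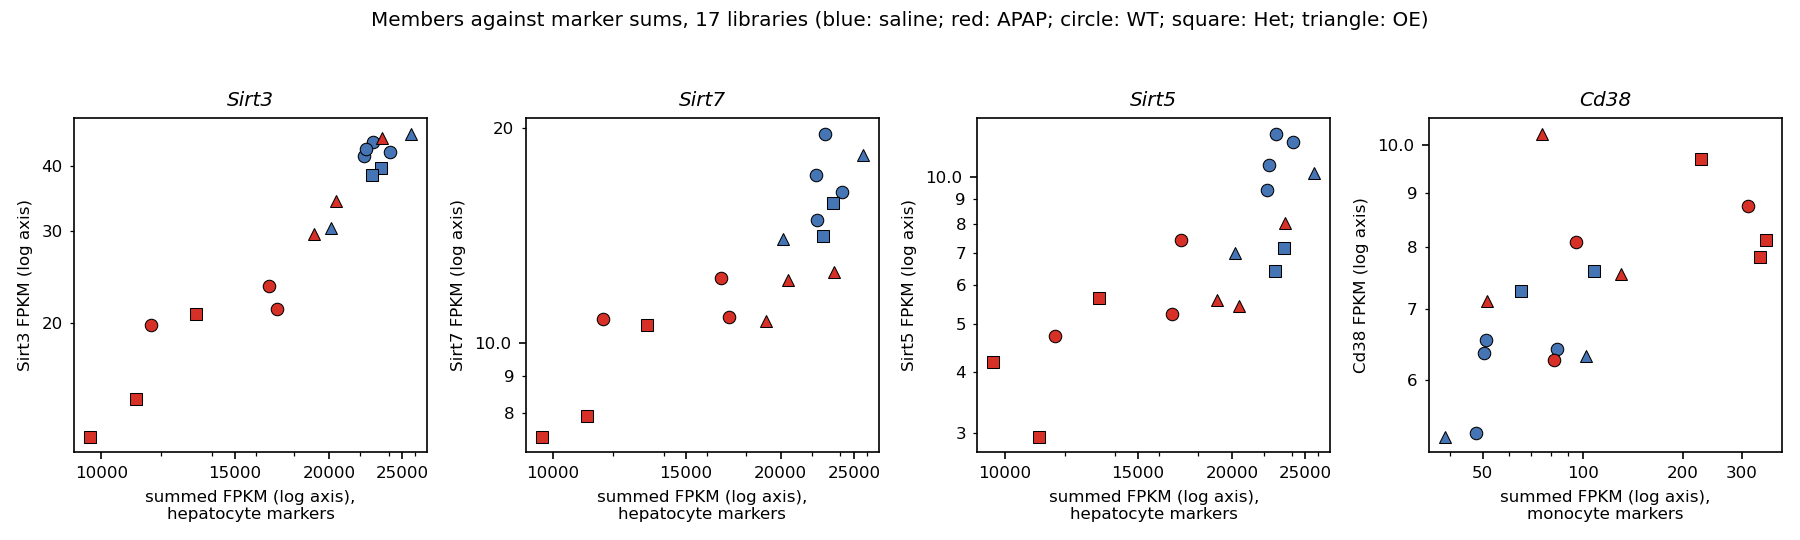
FPKM of Sirt3, Sirt7 and Sirt5 against the summed FPKM of 8 hepatocyte markers, and of Cd38 against that of 10 monocyte and macrophage markers, 1 point per library on log axes (blue saline, red APAP; circle WT, square Het, triangle OE). Sirt3 falls with the hepatocyte sum from 46.1 to 12.1 FPKM, and Cd38 spans 5.30 to 10.3 FPKM, with its highest value in the 300 mg/kg liver.

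Sirt3 and Sirt7 had the most similar profiles among the members. Over the 17 libraries, which share their depth and composition between genes, their log2(FPKM + 1) values had a Pearson r of 0.91, and 0.93 once group means were removed. Sirt5 followed Sirt7 (r = 0.88) and Sirt3 (r = 0.84), with 0.57 and 0.61 within groups, where its r was higher with Parp1 (0.78) and Parp2 (0.73). Leaving out predicted genes, small RNAs and pseudogenes, the tested genes most like Sirt3 were Fbxo3 (r = 0.98) and Gstz1 (0.97), an enzyme of tyrosine breakdown. For Sirt7 they were Emc9 (0.97) and Masp2 (0.95), and for Sirt5 Rassf6 (0.95) and Pygl (0.94), the liver glycogen phosphorylase. For Cd38 they were Ctsc and Ifitm1 (both 0.84), and for Sirt1 Stx7 and Hif1a (both 0.89). Among the others they were Apeh and Gaa for Sirt2 (both 0.81) and Usp28 (0.84) and Tmem50a (0.81) for Sirt4. Rsph3a (0.78) and Msh6 (0.77) were most like Parp1, and Maoa (0.83) and Srd5a3 (0.81) most like Parp2.

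Sirt3's exons overlap, on the opposite strand, 342 exonic bases of Psmd13 and 418 of Ric8a, 5.73% and 7.0% of its own. Neither neighbour passed, at 0.12 ± 0.09 for Psmd13 (limma, adjusted p = 0.371) and 0.14 ± 0.13 for Ric8a (adjusted p = 0.465). The library kit kept strand, but whether counting used it is not given in the sources used here.

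Of 12 tested genes listed as coding for mitochondrial sirtuin substrates, 9 fell and 0 rose at the mRNA level in the averaged response. Ppif, Uox and Glud1 did not pass. Of all genes, 13.3% fell and 9.81% rose. The median was -0.51, beside -0.02 for all genes and -0.39 for the hepatocyte markers, whose part in it was not tested. Within labels 2 fell in WT (median -0.63), 8 in Het (-0.81) and 0 in OE (-0.21), beside 5.54%, 22.2% and 0.0% of all genes called. Otc of the urea cycle fell by 0.88 ± 0.17 (limma, adjusted p = 0.00319). Acadl, a fatty acid dehydrogenase, fell by 0.79 ± 0.14 (adjusted p = 0.00254) and Mlycd, which degrades malonyl-CoA, by 0.62 ± 0.10 (adjusted p = 0.00123). In OE against Het after APAP 9 of the 12 were higher and 0 lower, beside 13.7% of all genes called. The median there was 0.84, beside 0.05 for all genes and 0.94 for the hepatocyte markers. Without OE APAP replicate 1, or with both OE libraries that stood apart left out, limma called 0 of 12 there, with medians of 0.63 and 0.62, and the averaged count was 4 without OE APAP replicate 2, 5 without OE saline replicate 2, 6 without both, 4 after quantile normalisation and 5 with each library scaled to the same sum. Among the 12, Cps1 is also among the hepatocyte markers.

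Of 11 tested genes in a list headed NAD supply, 6 fell and 1 rose, with a median of -0.44 beside -0.02 for all genes. The list also holds genes that do not make NAD, namely the NAD kinases Nadk and Nadk2, and Nnmt. Its counts are therefore not counts of NAD-making enzymes alone. Of all genes, 13.3% fell and 9.81% rose, and 13.7% were called in OE against Het after APAP. Nmrk1, a nicotinamide riboside kinase, fell by 1.15 ± 0.15 (limma, adjusted p = 0.000635), Naprt, which uses nicotinic acid, by 0.68 ± 0.12 (adjusted p = 0.00221), and the NAD kinases Nadk2 and Nadk by 0.60 ± 0.12 and 0.44 ± 0.10. The gene that rose was Slc25a51, the mitochondrial NAD carrier (0.59 ± 0.20, adjusted p = 0.0489), named because it was the only one. Nampt itself differed by -0.46 ± 0.16 (adjusted p = 0.0540). Without OE APAP replicate 2, 2 genes fell and 0 rose, and without OE saline replicate 2 the counts were 3 and 0; with each library scaled to the same sum they were 2 and 2. In OE against Het after APAP 5 of the 11 were higher (Nadk, Naprt, Nadk2, Nampt and, outside the naming rule, Nnmt) and 0 lower, and 0 were called without OE APAP replicate 1.

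Of 13 other members of the PARP family 2 fell and 0 rose, with a median of 0.05, a share near the 13.3% of all genes that fell. These were Parp16, an enzyme of the endoplasmic reticulum (-0.47 ± 0.12, adjusted p = 0.0168), and Parp9 (-0.44 ± 0.12, limma, adjusted p = 0.0178). With each library scaled to the same sum, and without OE APAP replicate 2, 0 of the 13 fell, and after quantile normalisation or without OE saline replicate 2 there was 1. Of other NAD glycohydrolases and ecto-ADP-ribosyltransferases 1 of 7, Art3, was abundant enough to test, and it did not pass (-0.55 ± 0.23, adjusted p = 0.113).

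Of 10 tested genes that remove ADP-ribose or help PARPs, 2 rose and 1 fell, a share near the 23.1% of all genes called. Of all genes 9.81% rose and 13.3% fell, which holds beside the repair genes below too. Macrod1, a mitochondrial hydrolase of ADP-ribose on proteins, fell by 1.27 ± 0.22 (limma, adjusted p = 0.00255). Nudt5, which cleaves free ADP-ribose, rose by 0.49 ± 0.11 (adjusted p = 0.00921), and Adprh rose by 0.44 ± 0.11 (adjusted p = 0.0142). The other 7 of 10 did not pass, among them Parg, the main glycohydrolase of poly(ADP-ribose), at 0.01 ± 0.19. Without OE APAP replicate 2, 0 rose and 1 fell, and without OE saline replicate 2 the counts were 1 and 2. Of 11 genes of single-strand break and base excision repair 3 rose (Ung by 0.87 ± 0.15, Pcna by 0.41 ± 0.13 and Tdp1 by 0.40 ± 0.12) and 1 fell (Aptx by 0.41 ± 0.10), with a median of 0.11, and 1 rose and 0 fell without OE APAP replicate 2.

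Of 15 tested regulators and partners of Sirt1, 4 fell and 1 rose, beside 23.1% of all genes called. Over 28 alternatives 2 to 4 fell and 0 to 2 rose, with 2 falling without OE saline replicate 2 or without OE APAP replicate 2. The bile acid receptor Nr1h4 fell by 1.09 ± 0.13 (limma, adjusted p = 0.000441), the lipid sensor Ppara by 0.74 ± 0.13 (adjusted p = 0.00254) and Nr1h3 by 0.38 ± 0.09 (adjusted p = 0.0141), and the clock factor Arntl rose by 0.94 ± 0.14 (adjusted p = 0.000869). The fourth that fell, Per2 (-1.26 ± 0.34, adjusted p = 0.0225), lies outside the naming rule. Ccar2, an inhibitor of Sirt1, did not pass (0.01 ± 0.11). The replication and zinc-class counts that follow are read beside all genes, of which 9.81% rose and 13.3% fell. Of 9 genes of DNA replication and mitosis 4 rose and 0 fell (Mcm2, Ccne1, Mcm5 and Mcm6, by 0.61 to 0.83), with 0 called without OE APAP replicate 2 and 1 without OE saline replicate 2. Of 9 tested deacetylases of the zinc-dependent class, which use no NAD, 1 fell (Hdac11, -0.47 ± 0.15, adjusted p = 0.0380) and 0 rose, with a median of -0.19, and the call was lost under all 3 scalings and without any 1 of 10 libraries (WT saline replicates 1 and 3, WT APAP 1 and 2, Het saline 1 and 2, Het APAP 1, OE saline 1 and 2, and OE APAP 2).

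**Figure D4:**
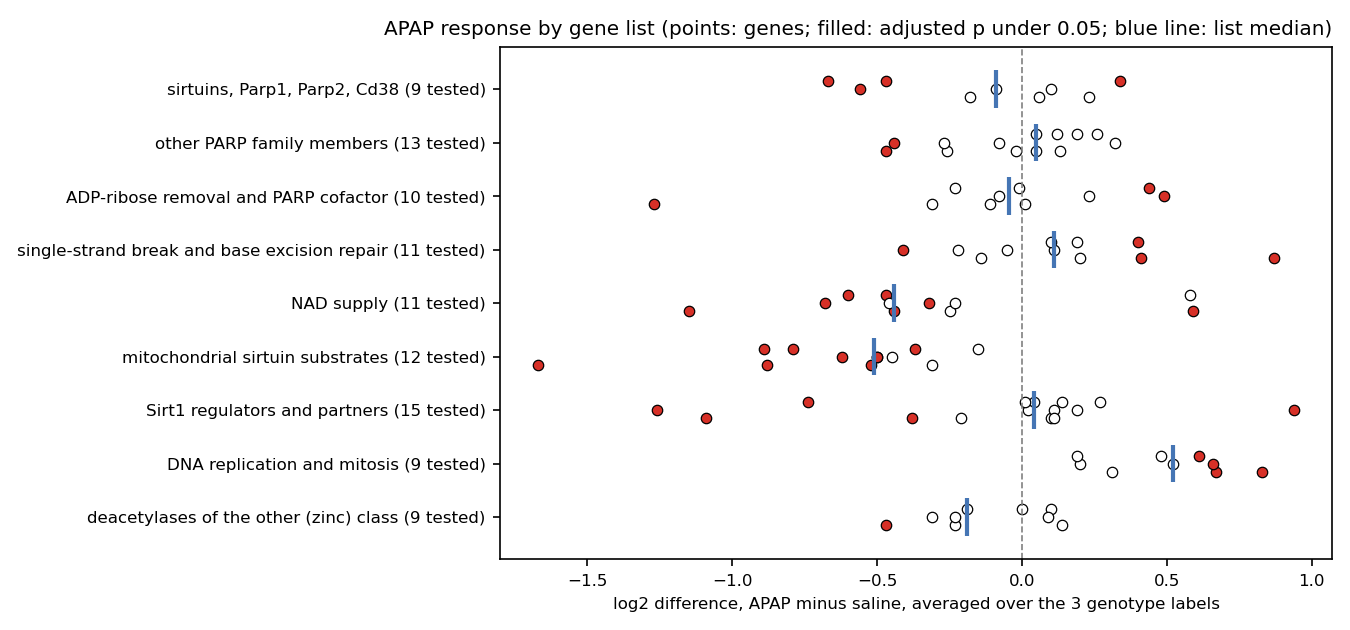
Difference after APAP averaged over the 3 labels, on the log2(FPKM + 1) scale, for each tested gene (points, filled where limma's adjusted p was under 0.05) of the members and of 8 related lists, with the list median as a blue line. The medians of mitochondrial sirtuin substrates (-0.51) and of the list headed NAD supply (-0.44) lie lowest, and that of replication genes (0.52) highest.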

How the data were processed

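RNA of 17 mouse livers was sequenced as paired-end, strand-keeping total RNA libraries, per the labels' protocols. The authors deposited 1 table of FPKM values per gene and library. The submitters' processing notes name bcl2fastq 2.17.1.14, TopHat2 2.0.9, Cufflinks 2.2.1, Cuffdiff and the build GRCm38.p5; annotation, Cuffdiff version and use of strand in counting: not given in the sources used here. FPKM as the unit was inferred from these tools and from the values, read depth is unknown, and no interval on counts can be given. Summed FPKM ranged from 466883 to 916006 per library, and 0 columns were left unmatched.

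Groups came from the labels, with replicates numbered in accession order. Values were taken as log2(FPKM + 1) and fitted in limma 3.58.1 (R 4.3.3), keeping genes whose mean reached 1 FPKM. The terms were 8 groups and perfusion, with a trended and robust prior and Benjamini-Hochberg adjustment at 0.05. The fit was also run on simulated data, whose changes were larger than those of the members and which held no lane or perfusion effect. Single averaged differences were also compared by an exact permutation test. Positions are from GENCODE (GRCm38) and promoters from RefSeq (GRCm38.p6). Left out were 108 genes listed at 0 throughout a genotype and drug block but high elsewhere, and 6 neighbours that may share their reads; this rule was set after several definitions had been counted on the data, no member was among them, and keeping them changed no member's call. Members and lists were chosen with earlier results of these data known. Named were the members, Nampt, up to 4 genes per list with the smallest p in the averaged response and the 2 genes most like each member; others are said to be outside this rule, and 1 gene that it covers and 1 promoter stretch are not reported here. Alternatives covered pseudocount, filter, scaling, covariates, weights, prior, samples in the fit and each library left out in turn.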

Additional observations from a re-analysis of the deposited data

How the results depend on the processing

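Of the 4 members called in the averaged response, 2 were called with each library scaled to the same sum (Cd38 and Sirt3), and 2 to 4 with 1 library left out. Under that scaling Sirt2 turned to 0.05. Parp1 ranged from -0.03 to 0.13 with 1 library left out. In WT, where 1 member was called, the count was 0 with no filter, after quantile normalisation, with the same sum, with only the groups compared and without both OE libraries that stood apart. It was 3 without the perfusion term and with the IG and 300 mg/kg libraries pooled into their groups (Sirt3, Sirt5 and Sirt7), and 0 to 2 with 1 library left out. In Het, where 2 were called, it was 1 after quantile normalisation and with lane in place of perfusion, 0 with only the groups compared, and 1 to 3 with 1 library left out. With the same sum or a common upper quartile it stayed at 2, but these were Sirt1 and Sirt3. With array weights it rose from 0 to 2 for Het against WT both under saline (Sirt5 and Sirt7) and after APAP (Sirt3 and Sirt7). The latter was also 2 with lane in place of perfusion and 0 to 2 with 1 library left out. For OE against Het after APAP, where 1 was called, it was 2 with a common upper quartile and with the rare labels pooled. It was 0 with lane in place of perfusion, with only the groups compared and without both OE libraries, and 0 to 1 with 1 library left out. With the same sum the 1 member was Parp2, not Sirt3. The causes were not tested.

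Counts over all genes moved as well. The averaged 2561 became 878 without OE APAP replicate 2, 1295 without OE saline replicate 2 and 1641 without both libraries that stood apart. The WT 614 became 170 with no filter, 282 with the same sum, 1240 without perfusion, 1069 with rare labels pooled and 10 with only the groups compared. The Het 2459 became 842 with lane and 837 with only the groups compared, and the 1517 of OE against Het after APAP became 911 with no filter, 108 with only the groups compared, 4 with lane, 5 without OE APAP replicate 1 and 1 without both. With array weights Het against WT went from 4 to 1706 under saline and from 6 to 1500 after APAP. Lane in place of perfusion could not be fitted for any comparison that sets WT saline against another group. Groups of 2 or 3 libraries limit every comparison within a label, and low FPKM values carry an unknown counting error.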
